A study of Arabidopsis thaliana with 36 samples.

Results

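JAZ1 to JAZ10 are Arabidopsis genes for JASMONATE ZIM-DOMAIN proteins, the repressors that hold jasmonate signalling off. They were taken by locus code (AT1G19180, AT1G74950, AT3G17860, AT1G48500, AT1G17380, AT1G72450, AT2G34600, AT1G30135, AT1G70700 and AT5G13220 for JAZ1 to JAZ10 in order), which gave 10 of the 28775 genes in the deposited count table, and all 10 were among the 21887 genes that passed the filter on low counts. The plants were the mutant opt3-2 and the wild type Col-0, and leaves (called shoots here) and roots were sequenced as poly(A) RNA. OPT3, the gene affected in opt3-2, encodes a membrane transporter for the loading of iron into phloem cells; by its title the series asks how cadmium disturbs the sensing of iron. The 4 groups were opt3-2 shoots, wild type shoots, opt3-2 roots and wild type roots, each with 3 biological replicates.

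Every group, the wild type included, had been moved to medium with 20 µM CdCl2 for 72 h before harvest. Before that the seedlings had 11 days on plates and 22 days in hydroponic culture with 16 h of light. Plants without cadmium were not analysed here, so no value below measures the effect of cadmium. The mutant is represented by a single allele, and RNA came from 3 to 4 plants ground together. Replicates are called biological in the labels, which give no growth batch or extraction day for them. P-values therefore measure the spread between these plant samples and nothing wider. Column names carry a run suffix of unstated meaning, which ran from 1 to 3 in every opt3-2 library. In wild type libraries it ran from 2 to 4 or from 5 to 7, so the suffixes differ between the genotypes. A part of the suffix in the genotype differences cannot be told apart from that of the mutation.

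A JAZ protein binds MYC transcription factors and keeps them inactive through the adaptor NINJA and corepressors of the TOPLESS family. When the active hormone, jasmonoyl-isoleucine, accumulates, it joins the F-box receptor COI1 to the JAZ protein, which is then ubiquitinated and degraded. The freed MYC factors transcribe defence genes in leaves, restrain growth in roots, and also transcribe most JAZ genes, so that JAZ transcripts are widely read as an output of the hormone as well as its brake. JAZ7 and JAZ8 carry their own repressor (EAR) motif, JAZ8 lacks the usual degron and resists degradation, and JAZ10 gives rise to splice forms that escape degradation. The counts here are per gene and do not separate such forms.

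The sequences before the transcription start show where the elements known to bind MYC factors lie in the 3 members whose transcripts differed most between the genotypes in shoots and in JAZ3, which differed least. Each stretch is the 250 bases before the annotated start in the RefSeq genome TAIR10.1, written 5′ to 3′ on the strand of the gene. Capitals mark the G-box CACGTG, a palindrome, and the T/G-box AACGTG on either strand (CACGTT when it lies on the other).
JAZ10 (chr5:4218536-4218785, plus strand): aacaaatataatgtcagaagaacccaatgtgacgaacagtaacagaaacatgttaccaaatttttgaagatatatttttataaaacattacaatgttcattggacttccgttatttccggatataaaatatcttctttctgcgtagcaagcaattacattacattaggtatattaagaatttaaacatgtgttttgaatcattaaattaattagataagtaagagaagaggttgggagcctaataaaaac
JAZ7 (chr2:14572780-14573029, plus strand): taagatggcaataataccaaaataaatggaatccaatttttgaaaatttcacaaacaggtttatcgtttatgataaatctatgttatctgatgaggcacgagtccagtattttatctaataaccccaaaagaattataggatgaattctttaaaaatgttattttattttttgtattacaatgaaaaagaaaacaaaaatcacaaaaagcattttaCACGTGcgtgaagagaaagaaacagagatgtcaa
JAZ8 (chr1:10596102-10596351, plus strand): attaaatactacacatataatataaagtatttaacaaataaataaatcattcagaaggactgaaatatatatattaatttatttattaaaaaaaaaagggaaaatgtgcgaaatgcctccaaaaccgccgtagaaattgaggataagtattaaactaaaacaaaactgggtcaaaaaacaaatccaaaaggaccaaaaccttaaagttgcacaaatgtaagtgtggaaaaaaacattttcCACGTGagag
JAZ3 (chr3:6119457-6119706, plus strand): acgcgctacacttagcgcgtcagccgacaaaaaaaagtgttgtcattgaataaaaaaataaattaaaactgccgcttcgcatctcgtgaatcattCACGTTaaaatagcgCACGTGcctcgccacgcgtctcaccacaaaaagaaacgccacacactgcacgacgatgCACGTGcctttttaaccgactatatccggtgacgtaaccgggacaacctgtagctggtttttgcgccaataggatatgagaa
The windows of 9 members were searched. A G-box stood in 4 of the 9, JAZ2, JAZ3, JAZ7 and JAZ8, against 6.49% of 27443 protein-coding genes. Counting upstream from -1 at the base before the start, it began at -34 in JAZ7, at -10 in JAZ8 and at -66 in JAZ2, and JAZ3 held 2, at -140 and -82. The T/G-box stood in 3 of the 9 (JAZ3, JAZ5 and JAZ6), against 7.54% of genes, and the GCC-box GCCGCC of ethylene response factors in 0 of the 9, against 1.87%. Over 1000 bases before the start, 8 of the 9 held a G-box, against 14.8% of genes, and the 1 without was JAZ10. The T/G-box stood in 8 of the 9 over this length, against 23.8% of genes; JAZ10 held 1, and the 1 without was JAZ7. JAZ10, which differed most between the genotypes in shoots, thus had no G-box in either window but a T/G-box in the longer one. JAZ8 and JAZ7, which differed next most, each had a G-box close to the start. JAZ3, with 2 G-boxes in the shorter window, differed least. Neither motif overlaps the other in these windows. A match of letters is not a bound site, and its absence from a window says nothing of the factor.

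Over the 12 libraries the total count lay between 21262406, in an opt3-2 shoot library, and 36484138, in a wild type root library. OPT3 itself was lower in each opt3-2 library than in any wild type library of its tissue (log2 -4.02 in shoots and -2.86 in roots). The 7 leaf marker transcripts summed to 55200 to 60400 CPM (read counts scaled to a common library size) in opt3-2 shoots. In wild type shoots they summed to 42200 to 51700 CPM, and in roots to at most 245 CPM. In opt3-2 shoots 4 of 7 were called higher than in wild type shoots, against 21.3% of all genes tested. The 7 root markers summed to 2140 to 2340 CPM in opt3-2 roots, against 3070 to 3410 CPM in wild type roots. In shoots their sum was at most 86.1 CPM. The lower sum in opt3-2 roots was not shared by the set. Its median log2 difference there was 0.03 (from -0.55 to 0.43), with 1 of 7 called lower, against 21.5% of all genes tested. In opt3-2 shoots 2 of 7 root markers were called lower, against 22.6% of all genes. The part of these marker differences in the results below was not tested. Among the root markers, ESB1, a Casparian strip gene, reached at most 0.785 CPM in any of the 12 libraries. In whole organs, fewer cells of a type and less RNA per cell cannot be told apart.

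In shoots the comparison asks what the mutation does to leaf transcripts of plants that all met cadmium. All 10 JAZ genes were lower in every opt3-2 shoot library than in any wild type shoot library, and 4 of them fell with an adjusted p below 0.05: JAZ10, JAZ7, JAZ5 and JAZ9. JAZ10 stood apart, 22.2-fold lower in opt3-2 shoots. Of all genes tested, 22.6% fell and 21.3% rose in opt3-2 shoots, while 26.8% had groups that did not overlap with opt3-2 lower and 26.2% with opt3-2 higher. With library sizes alone as scaling, 35.4% of the called genes were higher, against 48.5% here, while the JAZ genes kept their sign. Adjusted p-values come from edgeR's quasi-likelihood test over all 12 libraries with Benjamini-Hochberg adjustment over all genes, two-sided, here and throughout. The median log2 difference was -1.26 over the 10 JAZ genes and 0.00 over all genes.

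JAZ10, a gene of the feedback loop that is used as a marker of the wound and jasmonate response, had 1.29, 2.01 and 1.96 CPM in replicates 1, 2 and 3 of opt3-2 shoots, against 49.8, 15.3 and 50.4 CPM in wild type shoots. Its lowest wild type value, in replicate 2, was still well above all 3 opt3-2 values, and the groups did not overlap. The log2 fold change was -4.47 ± 0.74 (SE, n = 3 per group; edgeR adjusted p = 0.000894), and it was called in all 22 alternative fits.

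JAZ7 had 0.470, 0.838 and 0.608 CPM in opt3-2 shoots, against 9.75, 2.28 and 10.8 CPM in wild type shoots. Again replicate 2 was the low library of the wild type, and the groups did not overlap (log2 -3.60 ± 0.91, edgeR adjusted p = 0.00937). JAZ8, a close relative that also has an EAR motif, was the lowest member per exon length in opt3-2 shoots, with 0.196, 0.223 and 0.0935 CPM, against 2.81, 0.716 and 3.66 CPM in wild type shoots. That is 11 counts in all over the 3 opt3-2 libraries and 200 over the 3 wild type libraries. The groups did not overlap, but the SE was wide and the difference did not pass (log2 -3.78 ± 1.73, edgeR adjusted p = 0.106).

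JAZ5 had 2.74, 4.58 and 6.87 CPM in opt3-2 shoots, against 38.3, 15.1 and 37.1 CPM in wild type shoots. Every opt3-2 value lay below the lowest wild type value, and the gene fell (log2 -2.69 ± 0.85, edgeR adjusted p = 0.0276). JAZ6, from the same branch of the family, had 101, 119 and 132 CPM in opt3-2 shoots, against 259, 165.5 and 273 CPM in wild type shoots. The groups stood apart, but the difference did not pass (log2 -0.99 ± 0.49, edgeR adjusted p = 0.129). JAZ9, a member known to bind MYC2, had 100.5, 117 and 117 CPM in opt3-2 shoots, against 249, 176 and 259 CPM in wild type shoots. It fell by 1.03 on the log2 scale (SE 0.34, edgeR adjusted p = 0.0322), with no overlap.

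JAZ1, among the first JAZ proteins shown to be degraded through COI1, had 16.9, 21.7 and 29.5 CPM in opt3-2 shoots, against 77.6, 34.6 and 79.1 CPM in wild type shoots. No opt3-2 value reached the wild type range, and the p-value lay at the threshold (log2 -1.49 ± 0.55, edgeR adjusted p = 0.0504). JAZ2, known from guard cells for its part in the reopening of stomata by a bacterial mimic of the hormone, had 43.8, 48.9 and 43.4 CPM in opt3-2 shoots, against 92.0, 61.3 and 91.3 CPM in wild type shoots. It did not pass either (log2 -0.85 ± 0.37, edgeR adjusted p = 0.0916), although the groups again did not overlap.

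JAZ3 and JAZ4 differed least in shoots. JAZ3, of which a truncated, stabilised form gives the jasmonate-insensitive mutant jai3-1, had 42.6, 45.2 and 45.3 CPM in opt3-2 shoots, against 51.4, 47.6 and 52.1 CPM in wild type shoots (log2 -0.18 ± 0.13, edgeR adjusted p = 0.288). The gap between its groups was narrow, and the 3 libraries of either genotype lay close together. JAZ4 had 0.901, 1.23 and 1.12 CPM in opt3-2 shoots, against 1.45, 1.36 and 1.62 CPM in wild type shoots (log2 -0.46 ± 0.16, edgeR adjusted p = 0.0582). Its 3 opt3-2 values also lay below all 3 wild type values.

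The count of 4 depends on which libraries set the spread. Beside JAZ10, JAZ7 was called in 20 of 22 alternative fits, and JAZ5 and JAZ9 in only 15 of 22 each. The fit shares 1 estimate of the spread over shoots and roots. With the 6 shoot libraries alone, 9 of the 10 members were lower with an adjusted p below 0.05, JAZ4 being the exception, at log2 values nearly equal to those above. That fit called 9205 of all genes in either direction, against 9617 in the main fit. Without wild type root replicate 3 the count was 7, with 9768 genes called. Without any 1 of opt3-2 shoot replicates 1, 2 and 3 or wild type shoot replicates 1 and 3 it was 2, with 7613 to 9234 genes called.

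**Figure D1:**
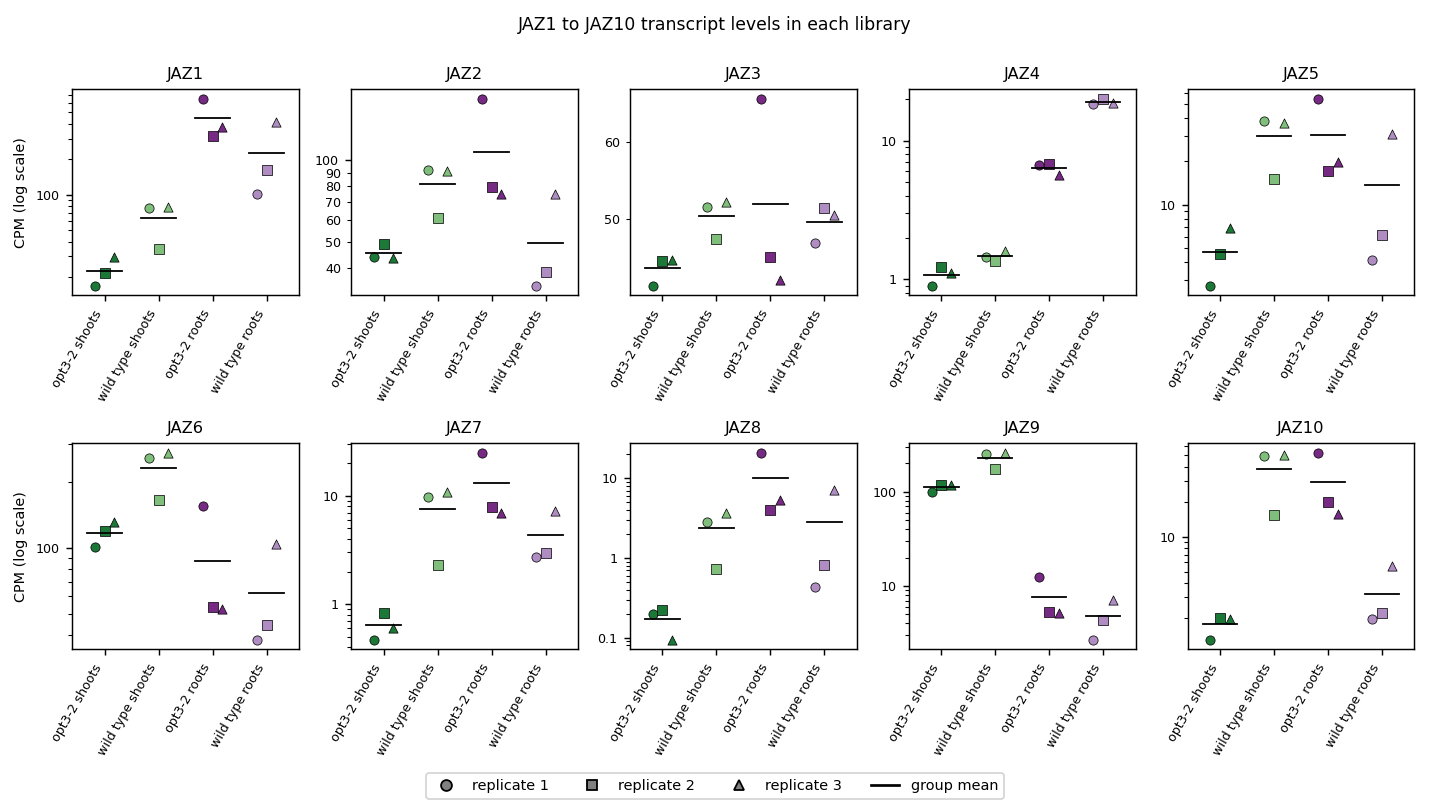
Transcript level of each JAZ gene in CPM (vertical axis, log scale, own range per panel) in the 12 libraries, by group along the horizontal axis; circles, squares and triangles are replicates 1, 2 and 3 and black lines are group means. In all 10 panels the 3 opt3-2 shoot points lie below the 3 wild type shoot points, while the root groups overlap in 8 panels and part only for JAZ10 (opt3-2 higher) and JAZ4 (opt3-2 lower).

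The same question was asked of roots. JAZ10 and JAZ2 rose in opt3-2 roots, JAZ4 fell, and the other 7 did not pass the test. Among all genes tested, 17.5% rose and 21.5% fell in opt3-2 roots. The groups did not overlap for 1 member with opt3-2 higher (24.1% of all genes) and 1 with opt3-2 lower (29% of all genes). The median log2 difference was 1.05 over the 10 JAZ genes and -0.01 over all genes.

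JAZ10 had 52.5, 19.9 and 15.6 CPM in replicates 1, 2 and 3 of opt3-2 roots, against 1.95, 2.21 and 5.55 CPM in wild type roots. Although replicate 1 was the high library of the mutant and replicate 3 that of the wild type, the groups did not overlap. JAZ10 was 9.06-fold higher in opt3-2 roots (log2 3.18 ± 0.64, edgeR adjusted p = 0.00333), and this was called in 21 of 22 alternative fits. The exception kept only columns with the run suffixes 2 and 3, a mark of unstated meaning that differs between the genotypes as given above. That choice leaves wild type roots with 1 library, replicate 3, the high one, whose spread is assumed to be that of the other groups.

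JAZ4, which has been linked to root growth and lateral roots, had 6.64, 6.83 and 5.65 CPM in opt3-2 roots, against 18.3, 20.0 and 18.5 CPM in wild type roots. Replicates of either genotype lay close together and the groups were far apart. It fell by 1.57 on the log2 scale in opt3-2 roots (SE 0.11, edgeR adjusted p = 9.82e-07), in all 22 alternative fits. JAZ4 was the 1 member lower in opt3-2 in both tissues by the fitted value.

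JAZ2 had 169, 79.4 and 74.7 CPM in opt3-2 roots, against 34.4, 38.7 and 75.2 CPM in wild type roots. The top wild type library, replicate 3, reached the level of the lowest mutant libraries, so the groups overlapped. It rose in the test (log2 1.12 ± 0.37, edgeR adjusted p = 0.0351), but was called in only 14 of 22 alternative fits. With the 6 root libraries alone it was not called (edgeR adjusted p = 0.11).

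JAZ1, the highest member per exon length in roots, had 655, 318 and 378 CPM in opt3-2 roots, against 102.5, 163 and 416 CPM in wild type roots. Replicate 3 of the wild type exceeded 2 of the 3 mutant libraries, and the difference did not pass (log2 0.99 ± 0.52, edgeR adjusted p = 0.159). JAZ7 had 24.8, 7.80 and 6.95 CPM in opt3-2 roots, against 2.70, 2.98 and 7.31 CPM in wild type roots, with a narrow overlap at the low end of the mutant (log2 1.603 ± 0.65, edgeR adjusted p = 0.0757). JAZ8 had 20.8, 4.04 and 5.26 CPM in opt3-2 roots, against 0.434, 0.822 and 7.13 CPM in wild type roots, where replicate 3 was the high library by far (log2 1.85 ± 0.95, edgeR adjusted p = 0.153).

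The remaining members also overlapped between the genotypes. JAZ5 had 54.4, 17.2 and 19.8 CPM in opt3-2 roots, against 4.13, 6.18 and 30.7 CPM in wild type roots (log2 1.15 ± 0.75, edgeR adjusted p = 0.252). For JAZ6 the values were 156, 53.7 and 52.3 CPM in opt3-2 roots, against 37.9, 44.2 and 104 CPM in wild type roots (log2 0.49 ± 0.49, edgeR adjusted p = 0.461). In both genes the top library was replicate 1 of the mutant, followed by replicate 3 of the wild type. JAZ9 had 12.6, 5.31 and 5.22 CPM in opt3-2 roots, against 2.68, 4.39 and 7.16 CPM in wild type roots (log2 0.69 ± 0.41, edgeR adjusted p = 0.207). JAZ3 had 66.6, 45.6 and 43.2 CPM in opt3-2 roots, against 47.2, 51.2 and 50.4 CPM in wild type roots (log2 0.06 ± 0.13, edgeR adjusted p = 0.741). Without opt3-2 root replicate 1 that value was -0.16, so its sign rests on 1 library.

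Which root libraries enter also moved the count of members that rose. It was 6 without wild type root replicate 3, and 1 without any 1 of opt3-2 shoot replicate 3, opt3-2 root replicate 1 or wild type root replicates 1 and 2. The first of these fits called 7701 of all genes in roots in either direction, against 8530 in the main fit. The others called 6599 to 8790.

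**Figure D2:**
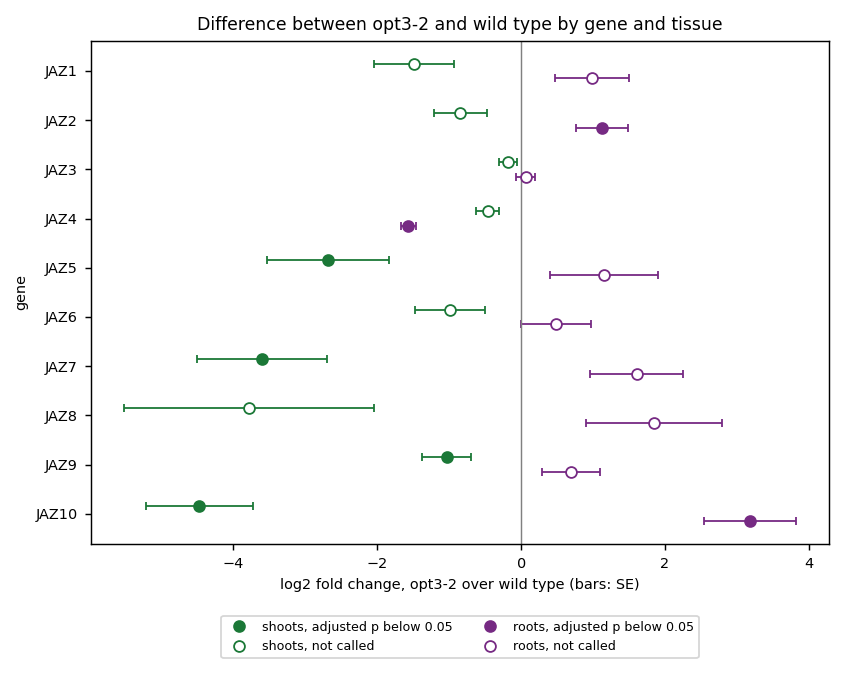
Log2 fold change of opt3-2 over wild type (horizontal axis) for each JAZ gene, green in shoots and purple in roots; bars are SE and filled points have an adjusted p below 0.05. Green points all lie left of 0, from -0.18 for JAZ3 to -4.47 for JAZ10, and purple points lie right of 0 except JAZ4 at -1.57.

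Whether the genotype difference itself differed between tissues was tested as the difference in shoots less that in roots, a contrast that uses all 12 libraries and so shares them with the comparisons above. It passed for 8 of 10 members (48.2% of all genes), 7 with a lower value in shoots than in roots and 1, JAZ4, with a higher value. Of all genes, 24.2% were called in the first direction and 24% in the second. The size was -7.65 ± 0.98 for JAZ10 on the log2 scale (edgeR adjusted p = 0.000154) and -5.21 ± 1.12 for JAZ7 (adjusted p = 0.0035). It was -5.63 ± 1.95 for JAZ8 (edgeR adjusted p = 0.0363), a call made in only 9 of 21 alternative fits, in which the highest adjusted p was 0.2. It was -3.84 ± 1.14 for JAZ5 (edgeR adjusted p = 0.0182) and -2.48 ± 0.76 for JAZ1 (adjusted p = 0.0209). JAZ2 (-1.97 ± 0.52, edgeR adjusted p = 0.0106) and JAZ9 (-1.72 ± 0.53, edgeR adjusted p = 0.0217) also passed. JAZ4 stood at 1.11 ± 0.20 (edgeR adjusted p = 0.000658), its difference in roots being the more negative. JAZ6 (-1.48 ± 0.69, edgeR adjusted p = 0.103) and JAZ3 (-0.24 ± 0.18, edgeR adjusted p = 0.301) did not pass. With opt3-2 shoot replicate 1 or opt3-2 root replicate 1 left out, 4 members passed with the lower value in shoots. Those fits called 9735 and 10053 of all genes in either direction, against 10542 in the main fit.

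In some single libraries nearly the whole family stood high or low together. Each library was set against the mean of the other 2 in its group, as the log2 ratio of CPM + 0.5. Wild type shoot replicate 2 was the lowest of 3 for 10 of 10 members, with a median log2 ratio of -0.93, although it was the lowest for only 38.1% of all genes. Opt3-2 root replicate 1 was the highest of its group for 9 of 10 members (median 1.36; 34.7% of all genes), and wild type root replicate 3 for 8 of 10 (median 1.23; 37.8% of all genes). Wild type root replicate 1 was the lowest for 10 of 10 (median -0.90; 32.7% of all genes). The median ratio over all genes lay between -0.016 and 0.005 in the 12 libraries.

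JAZ4 and JAZ3 hardly moved in these shifts in wild type roots. Their log2 ratios were -0.07 for JAZ4 and -0.11 for JAZ3 in replicate 1, and -0.05 and 0.03 in replicate 3. In replicate 3 JAZ8 had the largest ratio of all, 2.76, while the lowest of the 10 was -0.05. A list of 10 transcripts that respond within minutes to touch and wounding, among them the calmodulin-like TCH3 and the zinc finger gene ZAT12, was followed beside the family. All 10 transcripts of that list were lowest in wild type shoot replicate 2 (median log2 ratio -0.70), highest in wild type root replicate 3 (1.59) and highest in opt3-2 root replicate 1 (0.75). They were also lowest in wild type root replicate 1 (-1.97), in opt3-2 root replicate 2 (-0.97) and in opt3-2 shoot replicate 1 (-0.85). In that shoot library 8 of 10 JAZ genes were the lowest too (31% of all genes). The 2 sets parted elsewhere: in opt3-2 root replicate 2 only 3 of 10 JAZ genes were the lowest, against 7 of 10 in replicate 3. In opt3-2 shoot replicate 3, 9 of 10 touch transcripts but only 4 of 10 JAZ genes were the highest. The touch transcripts summed to 263 to 443 CPM in opt3-2 shoots, 358 to 581 CPM in wild type shoots, 1210 to 2270 CPM in opt3-2 roots and 681 to 2320 CPM in wild type roots.

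Between genotypes none of the 10 touch transcripts passed in shoots and only ZAT12 rose in roots (log2 1.26 ± 0.27, edgeR adjusted p = 0.00445). Their median log2 difference was -0.76 in shoots, of the same sign as that of the JAZ genes, and 0.14 in roots. In shoots 2 of 10 were lower in every opt3-2 library than in any wild type library, against 26.8% of all genes. For the shoot difference less the root difference their median was -1.07, and 2 of 10 passed with the lower value in shoots, against 24.2% of all genes. The part of these transcripts' rise and fall in the JAZ differences was not tested. A fit without wild type shoot replicate 2, wild type root replicate 3 and opt3-2 root replicate 1 called 9 members lower in opt3-2 shoots and 7 higher in opt3-2 roots. Of all genes it called 10559 in shoots and 7970 in roots in either direction, against 9617 and 8530 in the main fit. Those 3 libraries were left out because of their JAZ levels, so this result is a description and no independent evidence.

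The technical replicates of a library did not share this spread. Over 120 combinations of member and library the ratio of the variance of the 3 technical counts to their mean, scaled for depth, had a mean of 1.08, near the mean of 1 that counting error alone gives, and a median of 0.714. It was highest, 5.99, for JAZ2 in wild type root replicate 1. Between biological replicates the same ratio had a median of 67.0 over 40 combinations of member and group.

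**Figure D3:**
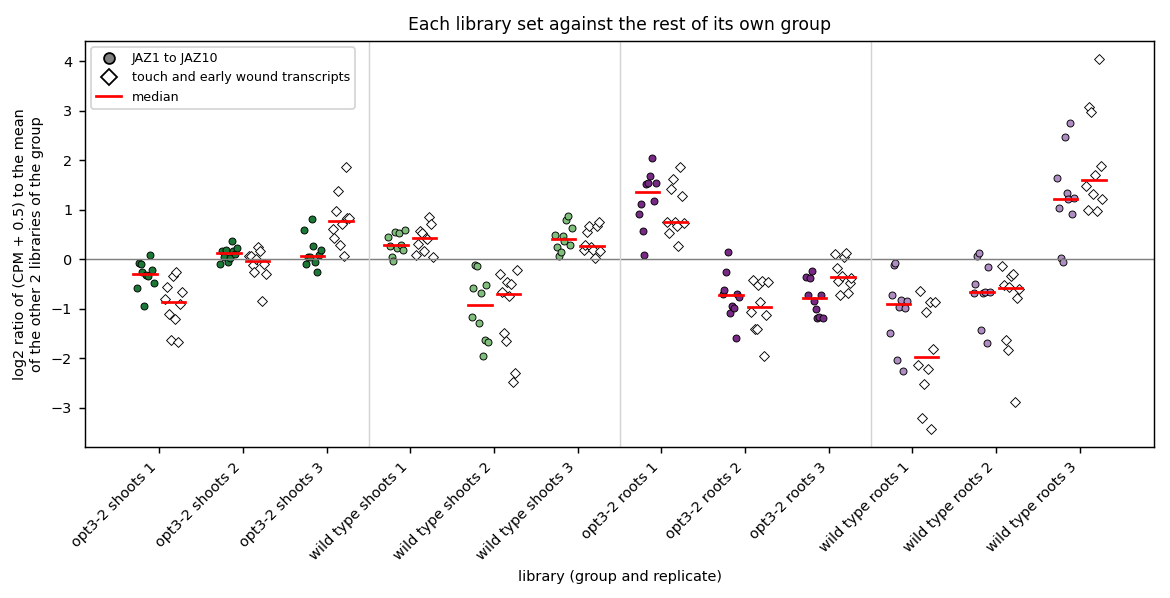
Log2 ratio of each library to the mean of the other 2 libraries of its group (vertical axis, CPM + 0.5) for the 12 libraries along the horizontal axis; circles are the 10 JAZ genes, open diamonds the 10 touch and early wound transcripts, red lines medians. Both sets drop together in wild type shoot replicate 2 (medians -0.93 and -0.70) and rise together in wild type root replicate 3 (1.23 and 1.59) and opt3-2 root replicate 1 (1.36 and 0.75).

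The highest members per exon length were JAZ9 and JAZ6 in shoots and JAZ1 in roots, in both genotypes. The summed level of the 10 genes was 310.1, 361 and 378 CPM in opt3-2 shoots (349.6 ± 35.2, SD, n = 3), against 831, 520.2 and 858 CPM in wild type shoots (736.5 ± 188). In roots it was 1217, 558 and 606 CPM in opt3-2 (794 ± 368), against 252, 334 and 722 CPM in wild type (436 ± 251). Sums did not overlap between genotypes in shoots and overlapped in roots. To compare members with each other, CPM were divided by the summed exon length of the gene in kilobases, and each gene's share of the family total was taken in each library.

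JAZ9 and JAZ6 led in leaves. JAZ9 held 33.2% ± 0.75 of the length-scaled pool in opt3-2 shoots and 32.1% ± 2.51 in wild type shoots (SD, n = 3 each), and JAZ6 held 30.3% ± 1.35 in opt3-2 shoots and 28.1% ± 0.49 in wild type shoots. JAZ2 came next with 18.3% ± 1.84 in opt3-2 shoots and 15.4% ± 0.92 in wild type shoots. The levels of JAZ9 and JAZ6 overlapped in either genotype, while JAZ6 and JAZ2 did not. At the foot of the order, JAZ8 was the lowest in opt3-2 shoots and JAZ4 in wild type shoots. JAZ10 held 0.433% ± 0.063 in opt3-2 shoots and 4.21% ± 1.45 in wild type shoots, and took rank 7 in the mutant and rank 6 in the wild type.

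JAZ1 led in roots with 56.6% ± 4.71 of the pool in opt3-2 and 50.1% ± 7.69 in wild type, ahead of JAZ2 with 17.3% ± 1.25 in opt3-2 and 16.0% ± 2.47 in wild type. Levels of JAZ1 did not overlap those of JAZ2 in either genotype. JAZ9, the leader in leaves, held 0.905% ± 0.073 in opt3-2 roots and 1.12% ± 0.18 in wild type roots. JAZ10 held 2.78% ± 0.67 in opt3-2 roots and 0.613% ± 0.051 in wild type roots, where it was the lowest of the 10. JAZ4 went the other way, with 0.845% ± 0.33 and the last rank in opt3-2 roots and 5.19% ± 2.46 and rank 5 in wild type roots. From rank 4 down in opt3-2 roots and from rank 5 down in wild type roots, the levels of each neighbouring pair overlapped.

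**Figure D4:**
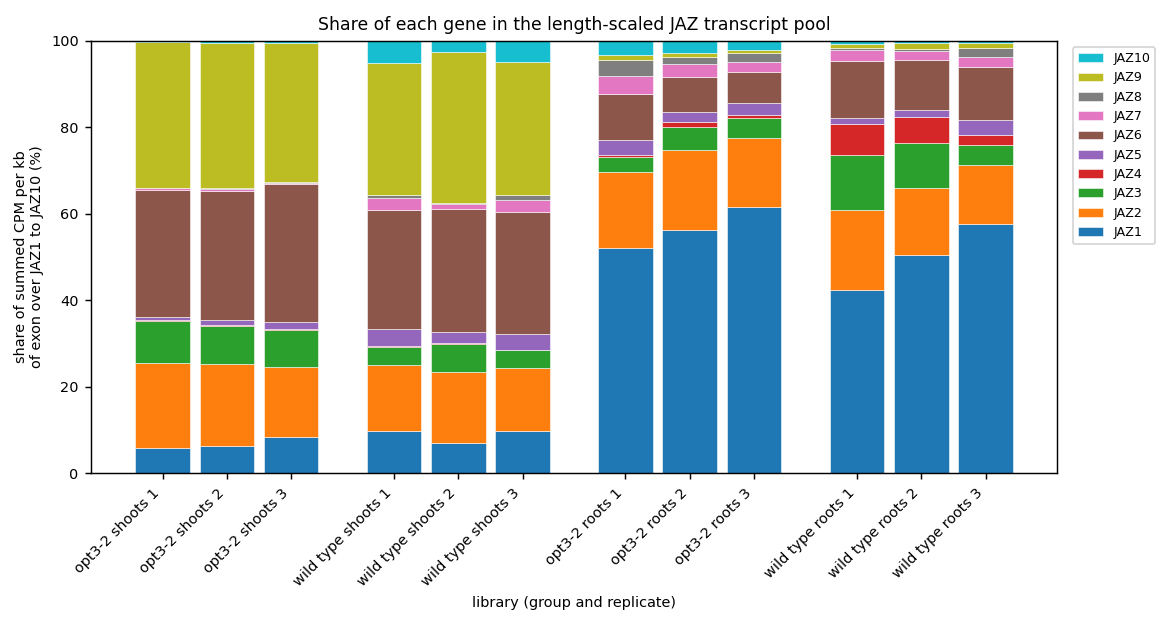
Share of each JAZ gene in the summed CPM per kilobase of exon of the 10 genes (vertical axis, percent) in each of the 12 libraries along the horizontal axis. JAZ9 and JAZ6 take the most in all 6 shoot libraries and JAZ1 in all 6 root libraries, where its share runs from 42.3% to 61.4%.

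By the rule for likeness, the genes outside the family whose log2 (CPM + 0.5) correlated most closely with that of JAZ10 over the 12 libraries were AT2G04400, annotated as an aldolase-type TIM barrel protein (Pearson r = 0.982), the glycosyltransferase gene UGT85A2 (0.982), CYT1 (0.978), AT1G09160 (0.972) and AT5G62620 (0.960), of 17820 genes compared. CYT1 makes the mannose donor needed for ascorbate and cell walls. These genes moved over a far narrower range than JAZ10: UGT85A2 had means of 53.3 CPM in opt3-2 shoots and 82.3 CPM in wild type shoots, and 77.2 CPM in opt3-2 roots and 61.0 CPM in wild type roots. The mean of the 10 standardised members was most like AT1G61890, a MATE efflux gene (0.976), with 27.4 CPM in opt3-2 shoots and 93.9 CPM in wild type shoots, and 129 CPM in opt3-2 roots and 67.6 CPM in wild type roots. MUB4 (0.952), AT5G14700 (0.949), AT1G22510 (0.944) and AT3G55430 (0.943) came next. The 12 points fall into 4 groups and share libraries and scaling with the JAZ values, so these coefficients describe likeness and carry no test. The order depends on the measure: by Spearman's rho, UGT85A2 and AT1G09160 ranked 2 and 5 for JAZ10, while AT5G62620, CYT1 and AT2G04400 ranked 28, 35 and 43. For the members' mean, AT1G61890 ranked 3 by rho, and AT5G14700, MUB4, AT1G22510 and AT3G55430 ranked 21, 30, 93 and 132.

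Roots were also compared with shoots within each genotype, to ask where each member is expressed. In opt3-2, 7 members were higher in roots than in shoots and 1, JAZ9, was lower (of all genes, 43.6% were higher and 41% lower). In wild type, 2 members were higher in roots, JAZ1 and JAZ4, and 3 were lower, JAZ6, JAZ9 and JAZ10 (39.5% and 38.6% of all genes). The median log2 difference over the 10 members was 2.63 in opt3-2 and -0.77 in wild type. These comparisons use the same libraries as those between genotypes, and their values restate the levels given above for another pairing of groups.

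JAZ10 was higher in roots than in shoots of opt3-2 (log2 4.08 ± 0.74, edgeR adjusted p = 0.000419) and lower in roots than in shoots of wild type (-3.58 ± 0.64, adjusted p = 0.000445). JAZ9 was lower in roots in both, by a log2 value of -3.87 ± 0.40 in opt3-2 and -5.59 ± 0.42 in wild type (edgeR adjusted p = 4.92e-06 and 4.73e-07). JAZ1 was higher in roots in both, at 4.31 ± 0.60 in opt3-2 and 1.83 ± 0.53 in wild type (adjusted p = 5.63e-05 and 0.00947). JAZ4 was likewise higher in roots in both, at 2.57 ± 0.14 in opt3-2 and 3.68 ± 0.12 in wild type (adjusted p = 2.65e-09 and 2.77e-11). JAZ7 (4.39 ± 0.89), JAZ8 (5.84 ± 1.53), JAZ5 (2.70 ± 0.85) and JAZ2 (1.25 ± 0.37) were higher in roots of opt3-2, and in wild type they did not pass. JAZ6 was lower in roots of wild type (-1.90 ± 0.50, edgeR adjusted p = 0.00506) and did not pass in opt3-2 (-0.43 ± 0.49, adjusted p = 0.423). JAZ3 passed in neither genotype, and its value in wild type, -0.02, was 0.33 with library sizes alone as scaling. That scaling moved the median of all genes by 0.43 in opt3-2 and 0.35 in wild type and raised the share of higher genes among those called to 66.8% in opt3-2 and 67.6% in wild type, against 51.5% and 50.6% here. Without wild type root replicate 3, 5 members were lower in wild type roots than in wild type shoots. That fit called 16618 of all genes in either direction, against 17080 in the main fit.

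Genes around the JAZ proteins were taken from lists of the pathway, ordered from the receptor to its outputs. Their counts are set against the shares of all genes given above, and no test of a list was made. In the machinery that reads the hormone, differences were small. Of 12 genes for the receptor complex and corepressors, 3 rose and 1 fell in opt3-2 shoots, and 0 rose and 3 fell in opt3-2 roots. COI1, the receptor, had a mean of 70.1 CPM in opt3-2 shoots and 57.7 CPM in wild type shoots (log2 0.28 ± 0.06, edgeR adjusted p = 0.00171). In roots it stood at 50.6 CPM in opt3-2 and 65.1 CPM in wild type (-0.36 ± 0.06, edgeR adjusted p = 0.00037). NINJA, the adaptor between JAZ proteins and TOPLESS, fell in opt3-2 shoots (-0.21 ± 0.05), the corepressor TPR1 rose there (0.31 ± 0.05), and TPL itself fell in roots (-0.24 ± 0.06).

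Among 8 genes for MYC factors, their bHLH competitors and the Mediator subunit MED25, 2 rose and 0 fell in opt3-2 shoots, and 0 rose and 2 fell in roots. MED25 had means of 46.8 CPM in opt3-2 shoots and 36.1 CPM in wild type shoots (log2 0.37 ± 0.09), and NIG1, a bHLH gene, had 1.79 CPM in opt3-2 shoots and 0.388 CPM in wild type shoots (2.19 ± 0.38). MYC4, 1 of the JAZ targets, had 25.7 CPM in opt3-2 roots and 50.4 CPM in wild type roots (-0.97 ± 0.08, edgeR adjusted p = 3.25e-06), and MYC3 also fell there (-0.36 ± 0.07). MYC2, the best known target and named here after its values were seen, did not pass in shoots (-0.62 ± 0.47, edgeR adjusted p = 0.321) or in roots (0.14 ± 0.46, adjusted p = 0.844).

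The relatives of JAZ1 to JAZ10 that share the TIFY domain were split in direction. Of 6, 3 rose and 2 fell in opt3-2 shoots, and 0 rose and 2 fell in opt3-2 roots. JAZ11 had means of 30.5 CPM in opt3-2 shoots and 19.4 CPM in wild type shoots (log2 0.66 ± 0.08, edgeR adjusted p = 9.12e-05), opposite in sign to all 10 members. AT3G22275, which the reference names only as a jasmonate ZIM-domain protein, had 0.233 CPM in opt3-2 shoots and 2.96 CPM in wild type shoots, and fell (-3.65 ± 0.89, adjusted p = 0.00691). In roots the 2 that fell were the PEAPOD genes PPD1 (-0.44 ± 0.13) and PPD2 (-0.48 ± 0.07), which limit leaf growth.

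Enzymes that make jasmonate were lower or not called in shoots, with 4 of 13 tested falling and 0 rising. OPR3, the peroxisomal reductase of the pathway, had means of 42.7 CPM in opt3-2 shoots and 154 CPM in wild type shoots (log2 -1.85 ± 0.41, edgeR adjusted p = 0.0048). AOC3, an allene oxide cyclase, had 3.95 CPM in opt3-2 shoots and 28.6 CPM in wild type shoots (-2.87 ± 0.68), and LOX2, the chloroplast lipoxygenase, 797 CPM in opt3-2 shoots and 1436 CPM in wild type shoots (-0.85 ± 0.21). In roots 5 of 13 rose and 1 fell: ACX1, an acyl-CoA oxidase of the final chain shortening, had 261 CPM in opt3-2 and 179.7 CPM in wild type (0.54 ± 0.08, edgeR adjusted p = 0.000292). The gene that fell in roots was JAR1, which conjugates jasmonate to isoleucine (-0.48 ± 0.10, adjusted p = 0.00325).

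Enzymes that inactivate the hormone fell in opt3-2 shoots and in part rose in opt3-2 roots. Of 9 tested, 9 fell in opt3-2 shoots (median log2 -2.74), and in opt3-2 roots 5 rose and 0 fell (median 1.42). ST2A, a sulfotransferase acting on hydroxylated jasmonate, had means of 5.79 CPM in opt3-2 shoots and 38.2 CPM in wild type shoots (-2.74 ± 0.31, edgeR adjusted p = 7.67e-05). In roots it had 42.0 CPM in opt3-2 and 7.72 CPM in wild type (2.44 ± 0.29, edgeR adjusted p = 0.00012). The amidohydrolase IAR3 fell in opt3-2 shoots (-1.26 ± 0.18) and rose in opt3-2 roots (0.53 ± 0.18). JRG21, an oxygenase gene named for its response to jasmonate, fell in opt3-2 shoots (-1.85 ± 0.34) and rose in opt3-2 roots, with 29.1 CPM against 2.69 CPM in wild type (3.43 ± 0.39, adjusted p = 9.55e-05). AT2G38240, of the same oxygenase superfamily, stood at -3.92 ± 0.78 in shoots and 4.20 ± 0.73 in roots, and AT5G05600 at -2.75 ± 0.42 in shoots and 1.02 ± 0.38 in roots, the last not called.

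Among outputs of the MYC branch, 7 of 8 fell in opt3-2 shoots and 5 of 8 rose in opt3-2 roots, with 0 in the other direction in either tissue. VSP1, a vegetative storage protein, had means of 14.98 CPM in opt3-2 shoots and 257 CPM in wild type shoots (log2 -4.10 ± 0.50), and 24.8 CPM in opt3-2 roots and 5.75 CPM in wild type roots (2.11 ± 0.49). TAT3, a tyrosine aminotransferase, had 10.2 CPM in opt3-2 shoots and 135 CPM in wild type shoots (-3.71 ± 0.32), and 14.03 CPM in opt3-2 roots and 2.19 CPM in wild type roots (2.68 ± 0.35). NAC019, a transcription factor gene that MYC2 activates, did not pass in shoots (-0.20 ± 0.26, edgeR adjusted p = 0.576) and rose in roots (3.01 ± 0.30, adjusted p = 3.24e-05).

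The branch that ERF1 and ORA59 drive, which needs ethylene as well as jasmonate, held few calls in roots. Most of its genes stood far lower in roots than in shoots to begin with. In wild type the median log2 difference of roots against shoots was -9.76, with 6 of 9 called lower and 2 higher. In opt3-2 shoots 8 of 9 fell and 0 rose, and in opt3-2 roots 1 rose and 0 fell. The chitin-binding protein gene PR4 had means of 52.7 CPM in opt3-2 shoots and 609.7 CPM in wild type shoots (log2 -3.53 ± 0.27, edgeR adjusted p = 7.12e-06), and in roots it did not pass (0.52 ± 0.25, adjusted p = 0.118). ERF1 did not pass in shoots (-0.44 ± 0.60, edgeR adjusted p = 0.581) and was the gene that rose in roots (1.06 ± 0.36, adjusted p = 0.0377), with overlapping groups. The list holds 4 defensin genes with near-identical copies, whose reads cannot be assigned to single genes with certainty.

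**Figure D5:**
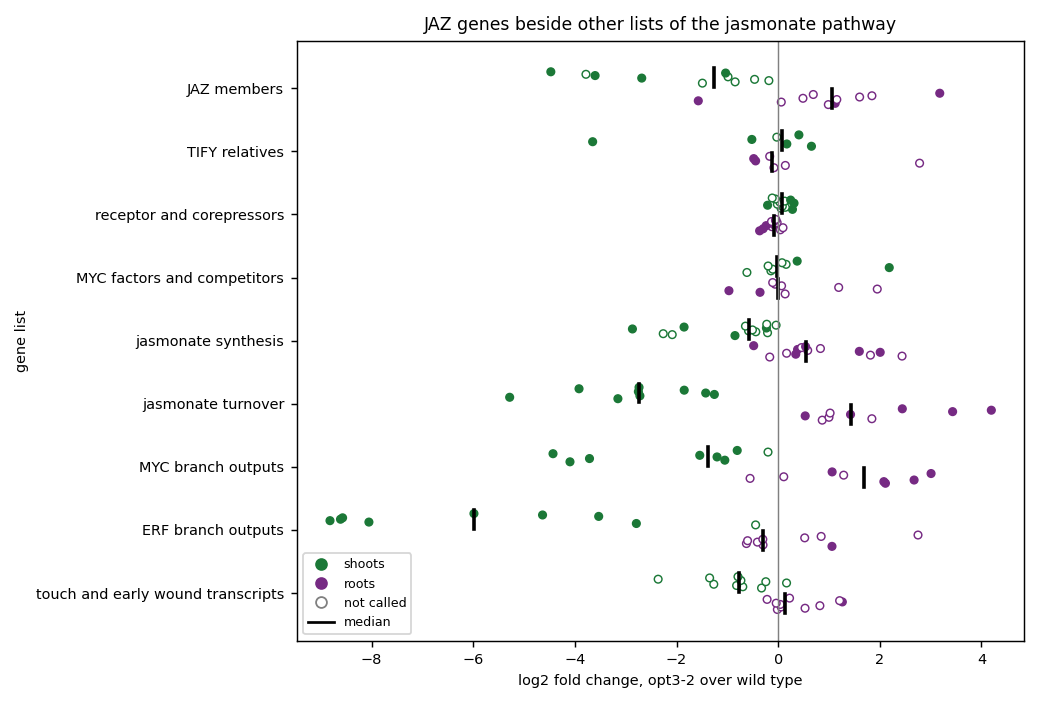
Log2 fold change of opt3-2 over wild type (horizontal axis) for the genes of each list down the vertical axis, green in shoots and purple in roots; filled points have an adjusted p below 0.05 and black lines are medians. The JAZ genes (medians -1.26 in shoots and 1.05 in roots) lie on the same sides of 0 as the turnover enzymes (-2.74 and 1.42) and MYC branch outputs (-1.37 and 1.68), while the receptor and corepressor genes stay close to 0. The medians of jasmonate synthesis (-0.58 and 0.54), of the touch transcripts (-0.76 and 0.14) and, barely, of the MYC factors and competitors (-0.015 and 0.004) lie on those sides too.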

How the data were processed

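Leaves and roots of opt3-2 and wild type plants, all under cadmium, were measured by RNA sequencing of poly(A) RNA. The authors deposited whole-number read counts per gene with no normalization; TopHat2, edgeR and the TAIR10 build appear in the submitters' processing notes. Counting tool, strand setting and handling of multiple hits are not given in the sources used. The 3 technical columns of each biological replicate were summed, which gave 12 libraries of 21262406 to 36484138 counts.

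The main test was edgeR's (4.0.16, R 4.3.3). After filterByExpr by group, 21887 of 28775 genes remained. With TMM scaling, 4 group means were fitted by the robust quasi-likelihood method, which left 8 residual degrees of freedom (root common dispersion 0.115). Calls need a Benjamini-Hochberg adjusted p below 0.05 over all genes. The SE was computed as the size of the log2 fold change divided by the root of F. CPM use TMM-scaled library sizes. The edgeR fit was tested on simulated counts for the shoot comparison alone. The simulation gave every gene the same spread and changed only genes with ample counts. It does not cover genes as variable as most JAZ genes or counts as low as those of JAZ8. The other steps were not tested in this way.

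The members and gene lists were chosen with earlier results of these data known. The rule for naming picked all members, OPT3 and the 3 genes with the smallest p per list and tissue. It also picked the 5 genes most like JAZ10 or the members' mean, with at least 5 CPM in a group. Of the genes picked from the lists only some are described. Left out are TIFY8, JAZ12, ASK2, JAM1, JAM2, AOC4, CLH1, VSP2, PR3, THI2.1 and WRKY53. Names, exon lengths and sequences came from RefSeq TAIR10.1, matched on locus code; the assembly differs in name from the authors' TAIR10. The promoter of 1 member is not reported here. In the annotation JAZ10 overlaps AT5G02045, an lncRNA on the other strand, by 71 bases, and no other member overlaps a gene. Alternatives were RLE factors, library sizes alone, no filter, DESeq2 1.42.0, limma-voom 3.58.1, each tissue alone, a replicate block, technical replicate 1 alone, run suffixes 2 and 3 alone, and each library left out; 1 more, without 3 libraries, was chosen after seeing the data.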

Additional observations from a re-analysis of the deposited data

Results flagged for a closer look

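For 8 of the 10 members the difference between opt3-2 and wild type was itself different in shoots and in roots, by edgeR's quasi-likelihood test of the interaction (opt3-2 minus wild type in shoots, less the same in roots; log2 scale, n = 3 per group). Of all genes tested, 48.2% passed the same test, 24.2% with the lower value in shoots and 24% with the higher. The members' values were -7.65 for JAZ10, -5.63 for JAZ8, -5.21 for JAZ7, -3.84 for JAZ5, -2.48 for JAZ1, -1.97 for JAZ2, -1.72 for JAZ9 and 1.11 for JAZ4. In 7 of these members the shoot value was the more negative, and their root values were above 0. In JAZ4 both tissues had opt3-2 lower, and roots had it lower by more. JAZ8 rests on 11 counts in opt3-2 shoots and was called in only 9 of 21 alternative fits. Beside these values, wild type shoot replicate 2, wild type root replicate 3 and opt3-2 root replicate 1 held most members away from the rest of their group, and all 10 touch and early wound transcripts moved with them. Their part in the interaction was not tested.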

How the results depend on the processing

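Of the members' log2 differences between genotypes in shoots, none changed sign under any alternative run; JAZ10 was called in shoots in 22 of 22 and JAZ4 in roots in 22 of 22. The number of members lower in opt3-2 shoots (4) was 2 with limma-voom, 2 with run suffixes 2 and 3 alone, 9 with the 6 shoot libraries alone and 9 without the 3 libraries that lay apart. The number higher in opt3-2 roots (2) was 1 with no low-count filter, 1 with the 6 root libraries alone, 1 with technical replicate 1 alone and 7 without the 3 libraries. In roots those fits called 8295, 8461, 6209 and 7970 of all genes in either direction, against 8530 in the main fit. In shoots limma-voom, the 6 shoot libraries alone and the fit without the 3 libraries called 9397, 9205 and 10559, against 9617. Suffixes 2 and 3 leave wild type roots with replicate 3 alone, the library in which most members stood high, and wild type shoots with replicates 1 and 2, so values with the suffixes that involve wild type roots compare 1 library, assumed to vary like the other groups, and are not comparable with the rest. They gave 0 members higher in roots, 3803 genes called in roots (8530 otherwise), 6707 for the interaction (10542 otherwise) and 1 member lower there (7 otherwise). For wild type roots against shoots, 3 members were lower, against 5 with limma-voom, 1 with the suffixes and 7 without the 3 libraries, and in opt3-2 the number lower was 1, against 2 without the 3 libraries.

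With 1 library left out, the ranges were 2 to 7 members lower in shoots, 1 to 6 higher in roots, 4 to 8 lower for the interaction, 3 to 5 lower in wild type roots against shoots, and 6 to 8 higher and 1 to 2 lower in opt3-2 roots against shoots. Genes called ranged from 7613 to 9768 in shoots, 6599 to 8942 in roots and 9407 to 10670 for the interaction, and from 16392 to 17293 in wild type and 18031 to 18634 in opt3-2 between tissues.

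Signs turned in these cases; the suffix values rest on that 1 wild type root library, and for the others the cause was not tested. In roots JAZ3 (0.06) was -0.148 without the 3 libraries and ranged from -0.160, without opt3-2 root replicate 1, to 0.177 with 1 library left out. JAZ6 (0.49) ranged from -0.228, without that replicate, to 1.083, and was -0.294 with the suffixes, under which JAZ5 was -0.001, JAZ9 -0.011, RRTF1 -0.204 and TCH3 -0.041. For wild type roots against shoots JAZ3 (-0.02) was 0.009 with DESeq2 and with RLE factors, 0.332 with library sizes alone, 0.062 with the suffixes and -0.061 to 0.015 with 1 library left out. With the suffixes JAZ5 was 0.143 and JAZ7 0.327. JAZ8 (0.22) was -0.522 with limma-voom, -2.359 without the 3 libraries and -1.915 to 0.726 with 1 library left out, the low end being without wild type root replicate 3.

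Whether same-numbered libraries of 2 groups shared plants or a batch is not given. Their deviations correlated between -0.367 and 0.165, which cannot settle this with 3 libraries per group. The main fit treats all libraries as unpaired. With the replicate block 5 members were lower in shoots, JAZ1 being added (-1.445, adjusted p = 0.0437), 2 rose and 1 fell in roots as without it, and 9202 and 8028 genes were called in shoots and roots. Depth limits JAZ8, JAZ7 and JAZ4 in shoots, where the opt3-2 libraries together held 11, 40 and 69 counts.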
